A study of Mus musculus with 8 samples.

Results

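The unfolded protein response is the programme by which a cell adjusts the folding capacity of its endoplasmic reticulum (ER). Its genes were followed here as 30 named members, taken by mouse symbol from the 37991 genes listed per library. The members are 14 chaperones and folding enzymes of the ER, 8 genes of the IRE1 and ATF6 arm with the degradation machinery it serves, and 8 genes of the PERK and ATF4 arm. The 8 libraries hold total RNA of fibro/adipogenic progenitors (FAPs), mesenchymal cells of skeletal muscle that can form fibroblasts and adipocytes. Both groups were taken from mixed background mice whose tibialis anterior had been injured with glycerol 3 days before. The 5 FAP-ctrl libraries came from wild type muscle. The 3 FAP-no cilia libraries came from cells whose primary cilium was removed by conditional deletion of a floxed allele of Ift88, a gene of intraflagellar transport. The driver of the deletion, the age of the mice and whether each library is a separate animal are not stated in the labels, so p-values measure only the spread between these libraries. The question is which of these transcripts differ in FAPs without cilia.

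The ER membrane carries 3 sensors of unfolded protein. IRE1 (gene Ern1) splices the Xbp1 messenger so that it encodes an active transcription factor, ATF6 is cut in the Golgi to release another, and PERK (gene Eif2ak3) phosphorylates the initiation factor eIF2-alpha, which slows translation but favours that of ATF4. XBP1 and ATF6 raise ER chaperones and ER-associated degradation, whereas ATF4 raises genes of amino acid supply and, with CHOP (gene Ddit3), of stress-induced death. FAPs are secretory cells that make collagen, which is folded and hydroxylated in the ER. Read counts per gene show neither the splicing of Xbp1, nor the cleavage of ATF6, nor the phosphorylation of eIF2-alpha.

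The arms act through short promoter motifs, and the matches below are shown because 7 of the 8 members with an ERSE match are chaperones. The 250 bases before the RefSeq start (GRCm38.p6) were searched on both strands in the 27 members with an entry, which leaves out Manf, Hyou1 and Atf6. The ER stress response element (ERSE), which reads CCAAT, then any 9 bases, then CCACG, was found in 7 of 12 chaperones, in 1 of 7 genes of the IRE1 and ATF6 arm (Syvn1) and in 0 of 8 of the PERK and ATF4 arm, and in 37 of all 32851 promoters (0.113%). Hsp90b1 holds 2 matches, and Canx, Pdia6, Dnajc3 and Creld2 hold 1 each beside those printed. ERSE-II, which reads ATTGG, any 1 base and CCACG, was found in Herpud1 alone among the members and in 0.0304% of all promoters. The C/EBP-ATF response element read by ATF4 (CARE), TGATGNAA, was found in Asns, Chac1 and Herpud1 and in 3.45% of all promoters, and the UPRE motif TGACGTGG in 0 members and in 0.563% of all. ERSE and ERSE-II share the letters CCACG but no printed site overlaps another. Each line runs 5′ to 3′ on the gene's strand, with the match in capitals (its reverse complement in Calr, Chac1 and the later Hsp90b1 site), and a match is a description of letters only.
Hspa5 (chr2:34772020-34772048, plus strand): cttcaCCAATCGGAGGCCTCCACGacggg
Hsp90b1 (chr10:86705623-86705671, minus strand): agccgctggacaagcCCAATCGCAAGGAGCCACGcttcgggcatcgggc
Hsp90b1 (chr10:86705518-86705566, minus strand): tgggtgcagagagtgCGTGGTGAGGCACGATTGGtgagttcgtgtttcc
Calr (chr8:84847060-84847108, minus strand): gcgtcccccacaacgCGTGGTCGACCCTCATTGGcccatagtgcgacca
Syvn1 (chr19:6046517-6046565, plus strand): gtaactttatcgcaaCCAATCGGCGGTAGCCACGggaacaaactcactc
Herpud1 (chr8:94386362-94386402, plus strand): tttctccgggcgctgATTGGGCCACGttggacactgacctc
Asns (chr6:7693220-7693237, minus strand): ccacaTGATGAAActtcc
Chac1 (chr2:119351034-119351071, plus strand): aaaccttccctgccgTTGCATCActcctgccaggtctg
The Hspa5 site ends 47 bases before the RefSeq start, and because the GENCODE gene models of Hspa5 and Asns reach into these windows, both sites are shown with flanks of 5 bases.

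The libraries held 15.3 to 43.9 M gene reads, fewest in FAP-no cilia 2. As a check of the labels, Ift88 stood at 211, 195 and 322 normalized reads in FAP-no cilia 1 to 3, highest in FAP-no cilia 3. In the controls it stood at 457 to 594, and its groups did not overlap. Its log2 difference (FAP-no cilia minus FAP-ctrl) was -1.14 ± 0.17 (SE). The adjusted p was 0.0895 by limma-trend, 0.0981 by edgeR and 6.6e-06 by DESeq2. The deleted gene itself thus passed by DESeq2 but not by limma-trend or edgeR. A gene that does not pass is therefore not shown to be unchanged. All 8 FAP markers were detected, with summed values of 351675 to 431230.0 in FAP-ctrl and 386962 to 415876 in FAP-no cilia. The sum of 12 macrophage markers was 578 to 2332 in FAP-ctrl and 1276 to 4142 in FAP-no cilia, highest in FAP-no cilia 2, and all 12 had positive differences. The sum of 6 tenocyte markers was 11386 to 16314 in FAP-ctrl and 16433 to 29623 in FAP-no cilia, without overlap. The sum of 8 endothelial markers was 598 to 961 in FAP-ctrl and 681 to 1565 in FAP-no cilia, highest in FAP-no cilia 3, and that of 7 plasma and B cell markers was 2349 to 3596 in FAP-ctrl and 2589 to 3368 in FAP-no cilia. Muscle and adipocyte marker sums overlapped between the groups, and no marker was at 0 in all libraries. By Xist and Y-linked genes all 3 FAP-no cilia libraries were male, as were FAP-ctrl 1 and 2, while FAP-ctrl 3 to 5 were female. The part of these differences in the results that follow was not tested, apart from the values for male libraries given with the gene classes.

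The chaperones and folding enzymes spanned a wide range of levels, and 8 of the 14 ranked within the first 145 genes. Levels are compared per kb of annotated exon, as normalized reads (mean ± SD over all 8 libraries), and ranked among 14266 tested genes with a known length. P4hb, the disulfide isomerase that is also a subunit of collagen prolyl hydroxylase, led the members at 22669.7 ± 2076 (rank 28). Pdia3, a disulfide isomerase for glycoproteins, stood at 21033 ± 2413, Calr, a lectin chaperone, at 21005 ± 2382, Hspa5 (BiP), the main ER Hsp70 chaperone, at 18836 ± 3053 (rank 40) and Hsp90b1 (GRP94), the ER Hsp90, at 17802 ± 2579 (rank 43). These 5 lay close together: Pdia3 exceeded Calr in 5 of 8 libraries, and Hspa5 exceeded Hsp90b1 in 7. A gap followed, since Hsp90b1 exceeded the next gene, Pdia6, at 6816 ± 766, in all 8. The 6 less abundant chaperones ranked from 658 (Dnajc3) to 2864 (Sdf2l1). Among the transcription factors Atf4 was at 3936 ± 557 (rank 247) and Xbp1 at 1962 ± 234 (rank 579), and Atf4 was the higher in all 8 libraries. The sensors were far lower, with Atf6 at 319 ± 29.6, Eif2ak3 at 278 ± 26.2 and Ern1 at 139 ± 16.3 (rank 6180). Neighbours here differed less clearly, Atf6 exceeding Eif2ak3 in 6 of 8 libraries. Chac1 at 18.9 ± 7.92 and Trib3 at 10.3 ± 4.09 (rank 12247), targets of the PERK branch, were the lowest members.

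**Figure D1:**
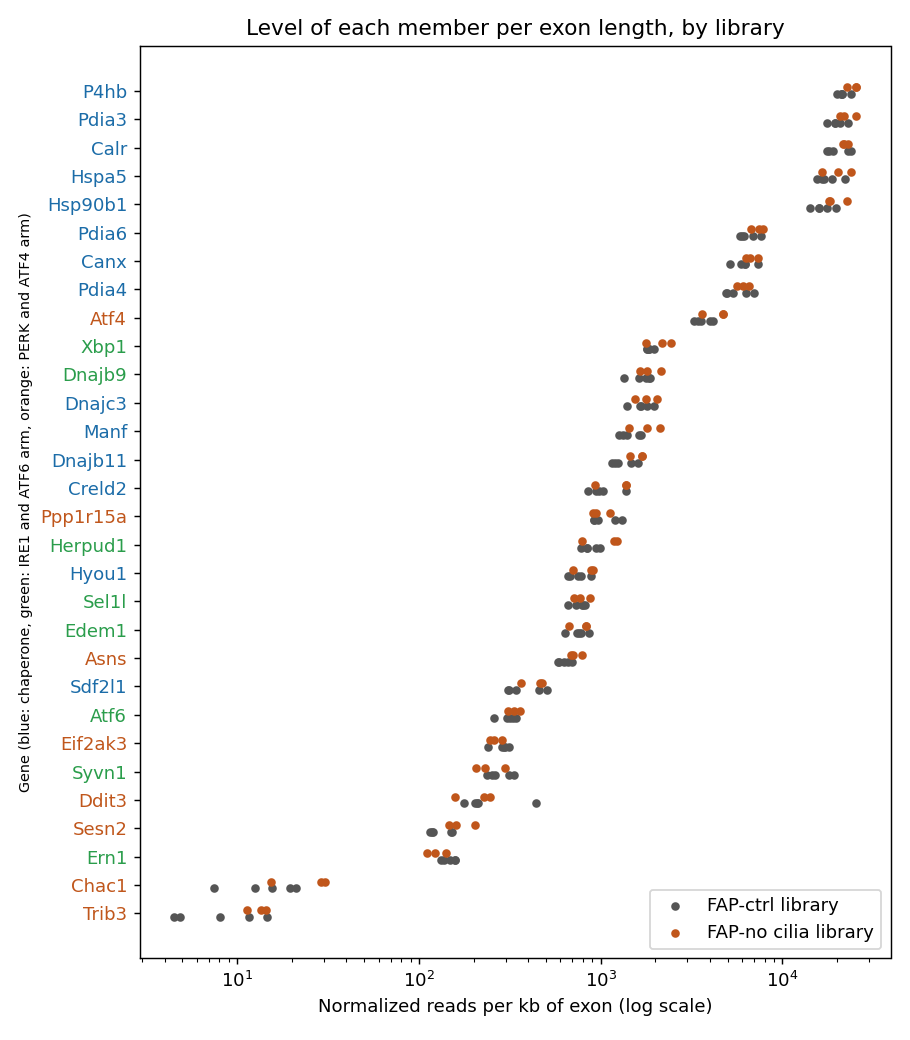
Normalized reads per kb of exon (log scale) for the 30 members, 1 point per library, grey for FAP-ctrl and orange for FAP-no cilia, ordered by the mean over 8 libraries. Levels span from 10.3 for Trib3 to 22669.7 for P4hb, and the groups overlap for each gene.

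Between the groups, most members had slightly higher mean log2 values without cilia, but none passed the test. All 30 passed the filter on low values, and 25 of them had a positive difference (FAP-no cilia minus FAP-ctrl on the log2(value + 1) scale), against 51.5% of all 14768 genes tested. The median difference was 0.17 over the members and 0.0077 over all genes. The 5 members with a negative difference were Ern1, Syvn1, Eif2ak3, Ddit3 and Ppp1r15a. At an adjusted p under 0.05 by limma-trend 0 members were called, and 1 of all genes tested (0.00677%). DESeq2 called 0 members and 1.22% of all genes, and edgeR's quasi-likelihood test 0 members and 0% of all genes. At an unadjusted p under 0.05, 3 members were higher (Dnajb11, Asns, Sesn2), where 4.68% of all genes were, and 1 was lower (Ern1), where 6.09% were. The libraries of both groups overlapped for all 30 members, while 3.62% of all genes had every FAP-no cilia library above every FAP-ctrl library and 3.69% the reverse. Adjusted p (limma-trend) ranged from 0.409 to 0.933. Ift88, the deleted gene, did not pass by limma-trend or edgeR either, so these tests do not show that the members are unchanged. In bulk RNA, fewer cells that express a gene and less RNA per cell cannot be told apart.

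**Figure D2:**
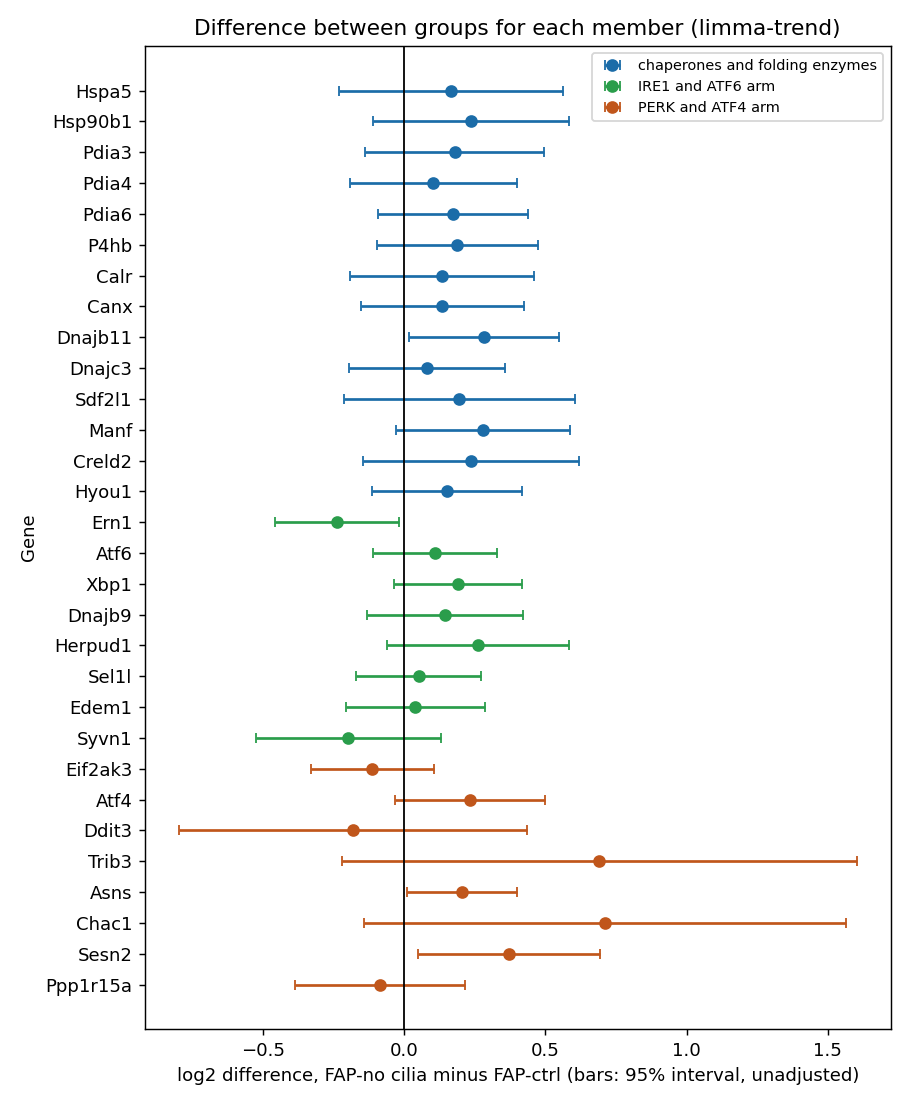
Log2 difference (FAP-no cilia minus FAP-ctrl) of each member with its unadjusted 95% interval from limma-trend, coloured by class. The intervals of 26 members include 0, those of Dnajb11, Asns and Sesn2 lie above it and that of Ern1 below, and no adjusted p is under 0.05.

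The 14 chaperones and folding enzymes shared a small positive difference, with a median of 0.18 and a range of 0.080 to 0.28, and 0 of 14 passed the test. Hspa5 (ENSMUSG00000026864, chromosome 2, 34771970 to 34777547, GRCm38) was read at normalized counts of 69929.8, 79574, 93679, 71612 and 65549 in FAP-ctrl 1 to 5 and 101463, 85761 and 69698 in FAP-no cilia 1 to 3. FAP-no cilia 1 was above every control, and FAP-no cilia 3 lay among the low controls. The difference of Hspa5 was 0.17 ± 0.18 (SE), with an interval of -0.23 to 0.56 and an adjusted p of 0.767 (limma-trend). It was 0.035 without FAP-no cilia 1, 0.31 without FAP-no cilia 3 and 0.10 when scaled by library totals. Hsp90b1 had 64066, 71042, 79514, 64492 and 57373 in FAP-ctrl 1 to 5 and 91056, 73133 and 73530.5 in FAP-no cilia 1 to 3. All 3 FAP-no cilia libraries exceeded the control mean but only the first exceeded FAP-ctrl 3, and the difference was 0.24 ± 0.16 (SE) (adjusted p = 0.619, limma-trend). Dnajb11, an Hsp40 partner of BiP, had 4013, 4733, 5185, 3872 and 3733 in FAP-ctrl 1 to 5 and 5496, 5441 and 4704 in FAP-no cilia 1 to 3. FAP-no cilia 1 and 2 were above all controls and FAP-no cilia 3 was below FAP-ctrl 2 and 3, with a difference of 0.28 ± 0.12 (SE) (adjusted p = 0.433, limma-trend). Manf, a secreted ER stress-induced factor that binds BiP, had 4678, 5755, 5879, 4906 and 4438 in FAP-ctrl 1 to 5 and 7438, 6319 and 5046 in FAP-no cilia 1 to 3. It showed the same order of the 3 libraries and a difference of 0.28 ± 0.14 (SE) (adjusted p = 0.503, limma-trend). Without FAP-no cilia 1 the difference was 0.13 for Hsp90b1 and 0.15 for Manf, and without FAP-no cilia 3 it was 0.43 for Manf. The Manf exons overlap those of Dcaf1 on the opposite strand by 146 bases, and no strand setting of the counts is stated. The Hsp90b1 exons overlap 1810014B01Rik, also on the opposite strand, by 415 bases.

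All 4 disulfide isomerases had positive differences, the highest being 0.19. Group means (FAP-ctrl, then FAP-no cilia, ± SD, n = 5 and 3) were 61657 ± 4178 and 70193 ± 4498 (SD) for P4hb, a difference of 0.19. Pdia3 had 62925 ± 6221 and 71186 ± 7714 (SD) and a difference of 0.18. Pdia6 had 24401 ± 2826 and 27404 ± 2094 (SD) and a difference of 0.17. Pdia4 was the least of these 4, with 13708 ± 2223 and 14599.9 ± 1074 (SD) and 0.10. The lectin chaperones, which hold glycoproteins during folding, also differed little: Calr had 58559 ± 8250.0 and 63719.7 ± 1900.2 (SD) with a difference of 0.13, and Canx 29028 ± 3776 and 31722 ± 2581 (SD) with 0.13. Among the factors that assist BiP, Hyou1, a nucleotide exchange factor, had 5417 ± 649 and 6019.9 ± 791 (SD) with a difference of 0.15. Sdf2l1, which works with Dnajb11, had 427 ± 100.3 and 482 ± 67.7 (SD) with 0.20. Dnajc3 (p58IPK), a BiP cochaperone, had the smallest difference, 8713 ± 1081 and 9209 ± 1247 (SD) with 0.080, which turned to -0.018 without FAP-no cilia 1. Creld2, an ER stress-induced secreted protein, had 1422 ± 279 and 1679 ± 353 (SD) with 0.24. None of these 10 genes passed the test or had all FAP-no cilia libraries above all controls. The median difference was 0.17 for the 7 chaperones with an exact ERSE match and 0.19 for the 5 without. This is a description with no test, covers only the 250 bases searched, and leaves out Manf and Hyou1, which have no promoter entry.

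**Figure D3:**
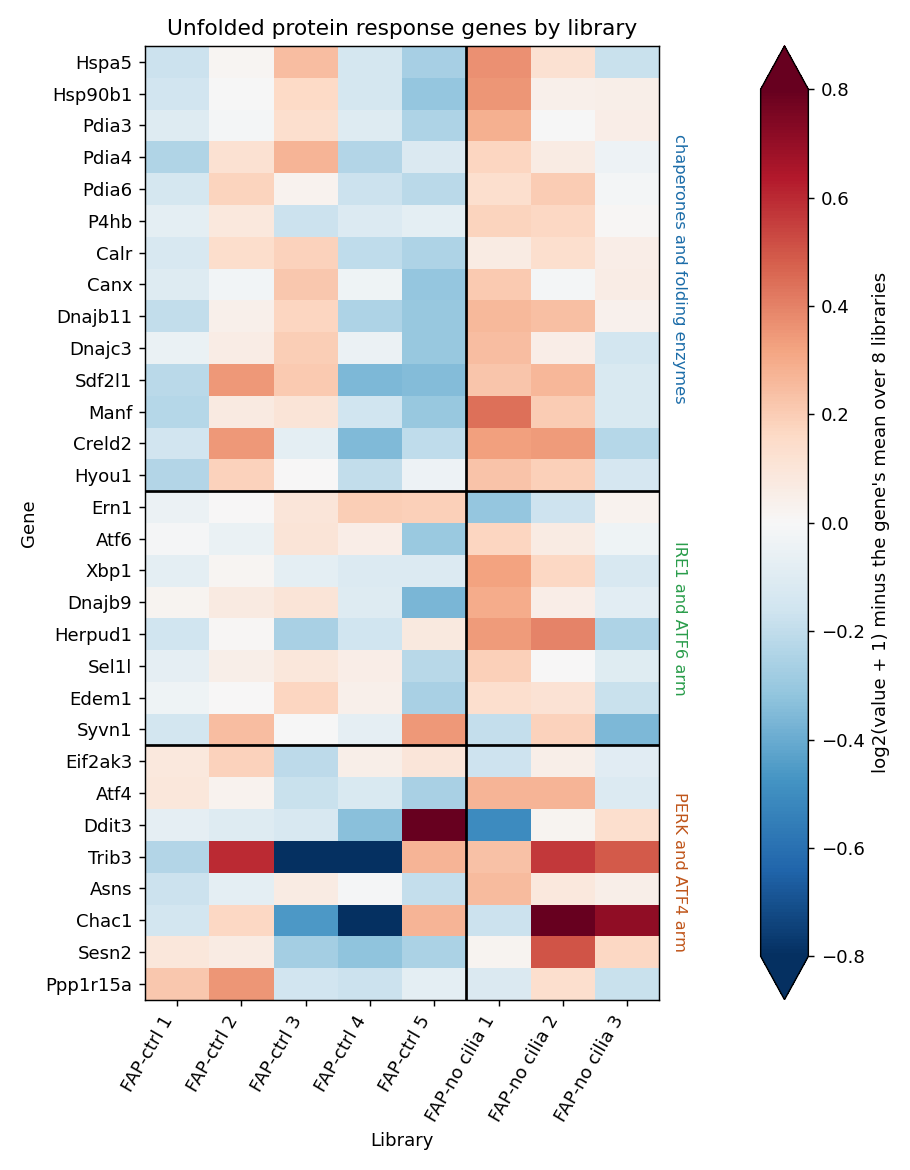
Deviation of log2(value + 1) from each gene's mean over 8 libraries, genes in rows by class and libraries in columns, red above and blue below the mean, with colours saturating at the ends of the scale. FAP-no cilia 1 holds the highest value of all 8 libraries for 8 of 14 chaperones, and FAP-ctrl 5 the lowest for 9, with the share over all genes not counted.

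In the IRE1 and ATF6 arm the sensor and its messenger target pointed in different directions, with 0 of 8 genes past the test. Ern1 (ENSMUSG00000020715, chromosome 11, 106394650 to 106487852) was read at normalized counts of 1089, 1129, 1206, 1293 and 1286 in FAP-ctrl 1 to 5 and 909, 1002 and 1149 in FAP-no cilia 1 to 3. FAP-no cilia 1 and 2 were below every control, while FAP-no cilia 3 lay within them. The difference was -0.24 ± 0.10 (SE), with an adjusted p of 0.431 (limma-trend), and -0.13 in male libraries only. Xbp1 (ENSMUSG00000020484, chromosome 11, 5520659 to 5525893), read here for both splice forms together, had 6011, 6414, 6003, 5875 and 5866 in FAP-ctrl 1 to 5 and 7923, 7101 and 5787 in FAP-no cilia 1 to 3. FAP-no cilia 1 and 2 were above every control and FAP-no cilia 3 was the lowest of all 8, around a tight control group, and the difference was 0.19 ± 0.10 (SE) (adjusted p = 0.537, limma-trend). Atf6, the sensor that is itself a transcription factor, had 2919, 2824, 3144, 3040.0 and 2391 in FAP-ctrl 1 to 5 and 3309, 3065 and 2866 in FAP-no cilia 1 to 3. Only FAP-no cilia 1 exceeded the highest control, and the difference was 0.11 ± 0.10 (SE) (adjusted p = 0.724, limma-trend). Herpud1, a membrane protein that organizes the degradation complex, had 1963, 2204, 1829.8, 1960.4 and 2310.5 in FAP-ctrl 1 to 5 and 2769.9, 2887 and 1846 in FAP-no cilia 1 to 3. As for Xbp1, libraries 1 and 2 without cilia were above all controls and library 3 was near the lowest, with a difference of 0.26 ± 0.15 (SE) (adjusted p = 0.551, limma-trend).

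Single libraries moved these values. Xbp1 was 0.088 without FAP-no cilia 1 and 0.31 without FAP-no cilia 3, and 0.12 when scaled by library totals. Atf6 was 0.045 without FAP-ctrl 5, 0.056 without FAP-no cilia 1 and 0.039 with library totals. Herpud1 was 0.17, 0.14 and 0.47 without FAP-no cilia 1, 2 and 3.

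Dnajb9 (ERdj4), a BiP cochaperone induced by XBP1, had means of 4311 ± 543 and 4757 ± 637 (SD) and a difference of 0.14. The degradation complex of Sel1l and Syvn1 (HRD1), an adaptor and its ubiquitin ligase, did not differ in 1 direction. Sel1l had 6516 ± 558 and 6751 ± 695 (SD) with 0.050, and -0.019 when scaled by library totals. Syvn1 had 1361 ± 203 and 1191 ± 237 (SD) with -0.20, its exons overlapping Mrpl49 on the opposite strand by 91 bases. Edem1, which directs misfolded glycoproteins to degradation, had 4894 ± 516 and 5030.4 ± 587 (SD) with 0.040, and -0.030 when scaled by library totals. The arm's median difference was 0.080, with 6 of 8 positive, and 4 of 8 positive when scaled by library totals (median 0.010).

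In the PERK and ATF4 arm the kinase and CHOP had negative differences, Atf4, Asns, Sesn2, Chac1 and Trib3 positive ones, Ppp1r15a a negative one, and 0 of 8 genes passed the test. Eif2ak3 (ENSMUSG00000031668, chromosome 6, 70844515 to 70905245) was read at normalized counts of 1773, 1898, 1447, 1728 and 1787 in FAP-ctrl 1 to 5 and 1491, 1722 and 1565 in FAP-no cilia 1 to 3. All 3 FAP-no cilia libraries lay within the controls, and the difference was -0.11 ± 0.10 (SE) (adjusted p = 0.713, limma-trend). Atf4 (ENSMUSG00000042406, chromosome 15, 80255184 to 80257541), controlled in large part by translation, had 9812, 9375, 8142, 8462 and 7697 in FAP-ctrl 1 to 5 and 11116, 11117 and 8536 in FAP-no cilia 1 to 3. FAP-no cilia 1 and 2 exceeded all controls and FAP-no cilia 3 lay among them, with a difference of 0.23 ± 0.12 (SE) (adjusted p = 0.515, limma-trend). Ddit3, whose product CHOP promotes death under prolonged stress, had 363, 356, 349, 304 and 758 in FAP-ctrl 1 to 5 and 269.9, 389 and 420.3 in FAP-no cilia 1 to 3. FAP-ctrl 5 was far above all other libraries, FAP-no cilia 1 was the lowest, and the difference of -0.18 ± 0.28 (SE) (adjusted p = 0.851, limma-trend) became 0.046 without FAP-ctrl 5 and 0.011 without FAP-no cilia 1. In male libraries only, Eif2ak3 was -0.21 and Atf4 0.086. Leaving out 1 library, Eif2ak3 ran from -0.18 (without FAP-ctrl 3) to -0.067 (without FAP-no cilia 1) and was -0.17 without FAP-no cilia 2, and Atf4 was 0.36 without FAP-no cilia 3. The Ddit3 exons overlap Mars on the opposite strand by 68 bases and another annotated Ddit3 entry on the same strand by 105 bases. The Eif2ak3 exons overlap Gm43292 on the opposite strand by 485 bases.

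Asns, asparagine synthetase, had 1613, 1723, 1901, 1804 and 1588 in FAP-ctrl 1 to 5 and 2164, 1921 and 1877 in FAP-no cilia 1 to 3. FAP-no cilia 1 and 2 were above all controls and FAP-no cilia 3 just below FAP-ctrl 3, with a difference of 0.20 ± 0.087 (SE) (adjusted p = 0.442, limma-trend). Sesn2, a stress-induced inhibitor of mTORC1, had 532, 523, 413, 400.1 and 418 in FAP-ctrl 1 to 5 and 508, 709.7 and 559.6 in FAP-no cilia 1 to 3. FAP-no cilia 2 and 3 were above all controls and FAP-no cilia 1 below FAP-ctrl 1 and 2, and the difference of 0.37 ± 0.15 (SE) had the smallest adjusted p of all members, 0.409 (limma-trend). It was 0.15 in male libraries only and 0.23 without FAP-no cilia 2. Ppp1r15a (GADD34), which returns eIF2-alpha to its unphosphorylated form, had means of 3126 ± 527 and 2925 ± 343 (SD) and a difference of -0.086, or -0.34 in male libraries only. Chac1, which degrades glutathione, and Trib3, a pseudokinase that binds ATF4, had the largest estimates but few reads. Chac1 was read 42, 30, 22, 14, 38, 20, 28 and 54 times in FAP-ctrl 1 to 5 and FAP-no cilia 1 to 3, with means of 25.0 ± 9.08 and 40.9 ± 13.6 (SD) and a difference of 0.71 ± 0.38 (SE). Trib3 was read 28, 29, 11, 11, 27, 19, 17 and 33 times, with means of 18.5 ± 9.30 and 27.8 ± 3.39 (SD) and a difference of 0.69 ± 0.41 (SE). In male libraries only the differences were 0.44 and 0.25. Both groups overlapped for each gene. The arm's median was 0.22 with 5 of 8 positive, and 0.059 over the 6 genes with a mean of at least 50, which leaves out Chac1 and Trib3.

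**Figure D4:**
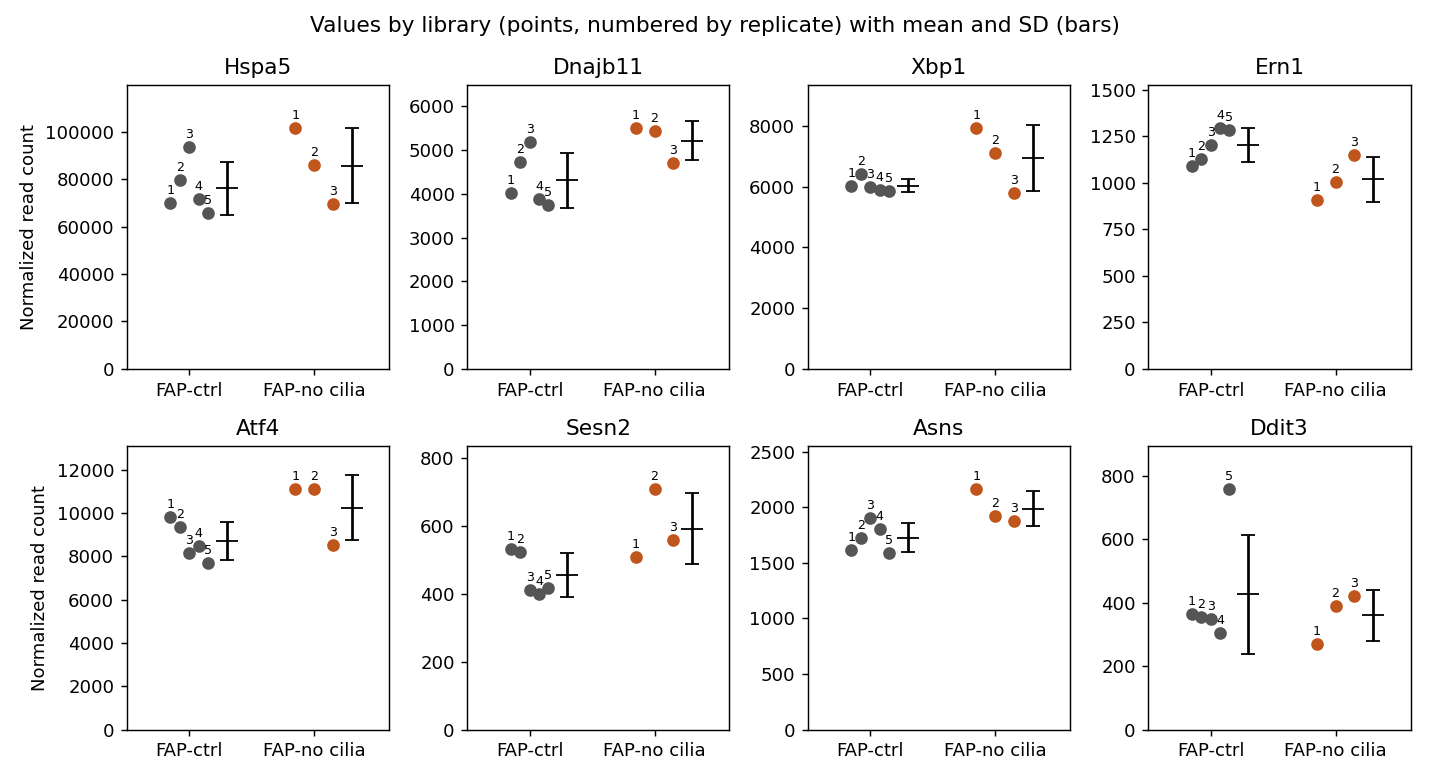
Normalized read counts of 8 members by library (points numbered by replicate) with group mean and SD (bars), on axes that start at 0. FAP-no cilia 1 and 2 stand above all controls for Dnajb11, Xbp1, Atf4 and Asns and below them for Ern1, and FAP-ctrl 5 stands apart for Ddit3 at 758.

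Libraries of the same group differed among themselves. Each class was summarised per library by the median of its members' log2 deviations from their mean over 8 libraries. For the chaperones this was -0.15, 0.078, 0.17, -0.17 and -0.26 in FAP-ctrl 1 to 5 and 0.24, 0.15 and -0.029 in FAP-no cilia 1 to 3. FAP-ctrl 3 was above FAP-no cilia 2, and FAP-no cilia 3 was below FAP-ctrl 2 and 3. For 8 of 14 chaperones the highest of all 8 values was that of FAP-no cilia 1, and for 11 FAP-no cilia 3 was the lowest of its group. For the IRE1 and ATF6 arm the medians were -0.059, 0.013, 0.10, -0.015 and -0.17 in FAP-ctrl 1 to 5 and 0.18, 0.091 and -0.11 in FAP-no cilia 1 to 3, and FAP-no cilia 3 was the lowest of its group for 7 of 8 genes. For the PERK and ATF4 arm they were 0.0060, 0.12, -0.19, -0.24 and 0.0091 in FAP-ctrl 1 to 5 and -0.046, 0.20 and 0.091 in FAP-no cilia 1 to 3. Here the order within the FAP-no cilia group was another: library 2 was its highest for 6 of 8 genes and library 1 its lowest for 5. FAP-no cilia 1 exceeded all controls for 15 of 30 members, FAP-no cilia 2 for 11 and FAP-no cilia 3 for 2 (Sesn2 and Chac1). The share of all genes for which a single library was highest, lowest or above all controls was not counted. These counts therefore describe the libraries and are not a result about the members.

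Against the 2 male controls alone, a comparison chosen after seeing the data, the medians were 0.12 for the chaperones, 0.042 for the IRE1 and ATF6 arm and 0.12 for the PERK and ATF4 arm, with 25 of 30 members positive. The chaperone median was 0.11 when scaled by library totals, and all 14 stayed positive. Leaving out a single library moved the median of the IRE1 and ATF6 arm to 0.013 without FAP-no cilia 1, 0.023 without FAP-ctrl 5 and 0.15 without FAP-no cilia 3. FAP-no cilia 2, with the highest macrophage sum, and FAP-no cilia 3, with the highest endothelial sum, differed in chaperone median, and the part of those cells in it was not tested.

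**Figure D5:**
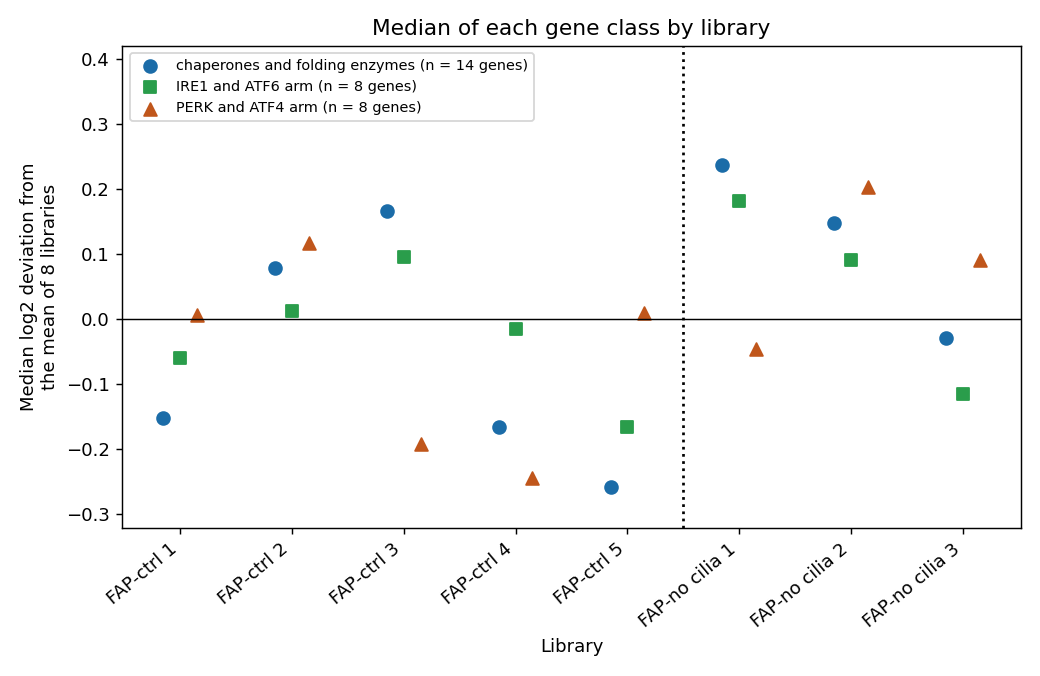
Median log2 deviation of each class by library, with circles for the 14 chaperones, squares for the 8 genes of the IRE1 and ATF6 arm and triangles for the 8 of the PERK and ATF4 arm. The chaperone medians run from -0.26 in FAP-ctrl 5 to 0.24 in FAP-no cilia 1, and the groups overlap in each class.

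Other genes of the same pathway were counted from lists by function, and 0 passed the test in any list by limma-trend, DESeq2 or edgeR. At an unadjusted p under 0.05, 1 gene was higher in each of the first 4 lists below and 1 lower in the fourth. Over all genes tested, 4.68% were higher and 6.09% lower at this level. Groups that did not overlap were found for 3.62% of all genes, higher in FAP-no cilia, and for 3.69% the reverse. Of 24 other ER chaperones and folding enzymes, 18 had a positive difference, with a median of 0.077. Sil1, a nucleotide exchange factor of BiP, had 728 ± 48.7 and 865 ± 53.2 (SD) with a difference of 0.25 ± 0.088 (SE) and groups that did not overlap (adjusted p = 0.361, limma-trend). Of 16 translocon and signal peptidase genes 13 were positive (median 0.072), led by Ssr2, a translocon-associated subunit, at 0.28 ± 0.10 (SE) (adjusted p = 0.372, limma-trend). Of 17 tested genes of ER-associated degradation 16 were positive (median 0.079). Faf2, which recruits the p97 ATPase to the ER, had 2411 ± 111 and 2786 ± 141 (SD) with 0.21 ± 0.072 (SE) and groups that did not overlap (adjusted p = 0.345, limma-trend). Of 15 other sensors and regulators 9 were positive (median 0.060). They included Eif2ak1, another kinase of eIF2-alpha, at 0.18 ± 0.068 (SE) without overlap, and Crebrf, a negative regulator of the response, at -0.42 ± 0.16 (SE) (adjusted p = 0.398 for each, limma-trend).

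The widest list was that of 32 other ATF4 targets and stress genes tested, of which 25 were positive and the median 0.17. At an unadjusted p under 0.05, 7 were higher and 1 lower, where 4.68% and 6.09% of all genes were, and 51.5% of all genes were positive. Psat1, a serine synthesis enzyme, had 3561 ± 119 and 4294 ± 345 (SD) with a difference of 0.27 ± 0.076 (SE) and no overlap (adjusted p = 0.254, limma-trend). Slc7a3, a cationic amino acid transporter, had few reads, at 29.3 to 61.1 in FAP-ctrl and 11.4 to 27.1 in FAP-no cilia, without overlap (adjusted p = 0.361, limma-trend). The gene is X-linked, and its highest values were those of the female FAP-ctrl 3 to 5, at 35.4 to 61.1. Both male controls were lower, the lowest being FAP-ctrl 1 at 29.3, against 27.1 in FAP-no cilia 3, the highest of its group. The part of sex in this difference was not tested. Of 12 genes of matrix secretion, which are 11 secreted proteins and the ER-resident collagen chaperone Serpinh1 (HSP47), 7 were positive, Serpinh1 among them, with a median of 0.015, and Postn (periostin) had 85939.5 ± 36326 and 51115 ± 6462 (SD) with -0.65 ± 0.32 (SE) (adjusted p = 0.503, limma-trend). Col6a1, a collagen VI chain, had -0.31 ± 0.22 (SE) (adjusted p = 0.647, limma-trend).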

How the data were processed

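Stranded total RNA libraries of FAP-ctrl (5) and FAP-no cilia (3) were read from 1 end, per the labels. STAR alignment to GRCm38 and DESeq normalization by the authors are stated in the design text; the counter, its strand setting and annotation release are not given in the sources used. The deposited signal per gene is reads over a size factor per library: 100% of values were whole reads within a tolerance of 0.01 reads, and 1 read was worth 0.610 to 1.79 normalized reads, which limits Chac1 and Trib3.

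Genes that reached 10 in 3 or more libraries (14768) were compared on log2(value + 1) by limma-trend, genotype as the only term, two-sided, Benjamini-Hochberg over all genes, threshold 0.05. Fold changes on this scale understate changes of low genes. Intervals are 95% and unadjusted. Fits were run with limma 3.58.1, DESeq2 1.42.0 and edgeR 4.0.16 in R 4.3.3, and tables and plots made in Python 3.11.15 with pandas 2.3.3, matplotlib 3.10.9 and numpy 2.4.6. The limma fit was run on simulated data with less spread than these libraries and with planted changes larger than any member's difference. It therefore does not show how changes of the members' size would fare. Symbols and coordinates came from GENCODE M21 (GRCm38), which matched 32919 of 37991 identifiers, and promoters from RefSeq.

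Members, lists and tests were chosen with earlier results of these data known. Values in each library are given for the 3 sensors, Xbp1, Atf4, Ddit3, Hspa5 and the 3 members of each class with the smallest p, and up to 2 genes with the smallest p may be named from each other list. Alternatives were pseudocounts of 0.1 and 5, other filters, library totals, TMM scaling, edgeR, DESeq2 and limma-voom on recovered reads, a replicate block, sex as a covariate and leaving out each library; male libraries only was added after seeing the data. Replicates differed by chi-square statistics of 19.7 to 105 per degree of freedom, so none was a copy.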

Additional observations from a re-analysis of the deposited data

Results flagged for a closer look

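A check for single libraries far from the rest of their group covered the 5 FAP-ctrl libraries of each of the 30 members, and chance alone picks out about 1 in 20 such groups. It picked out 2. Xbp1 in FAP-ctrl 2 was 6414 normalized reads, with the nearest control at 6011, a gap of 0.736 of the group's range. The other 4 controls lay between 5866 and 6011. Ddit3 in FAP-ctrl 5 was 758, with the nearest control at 363, a gap of 0.869 of the range.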

How the results depend on the processing

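In all 21 alternatives 0 members were called, and 26 of 30 members kept their sign. The lowest adjusted p of any member in any alternative was 0.118 (Herpud1). The sign reversed for Sel1l (-0.019 with library totals, -0.029 without FAP-no cilia 1), Dnajc3 (-0.016 with the replicate block, -0.018 without FAP-no cilia 1), Ddit3 (0.046 without FAP-ctrl 5, 0.011 without FAP-no cilia 1) and Edem1 (-0.030 with library totals, -0.024 with the block, -0.021 without FAP-ctrl 5, -0.015 without FAP-no cilia 1 and -0.0071 without FAP-no cilia 2); the cause was not tested. Leaving out 1 library, their ranges were -0.029 to 0.12, -0.018 to 0.18, -0.31 to 0.046 and -0.021 to 0.14. Over all genes, 1 gene passed; 0 did with edgeR (TMM or RLE factors), limma-voom or the replicate block, 177 with DESeq2, 2 in male libraries only and 1 to 3 when 1 library was left out (2 without FAP-ctrl 3, 2 without FAP-no cilia 2, 3 without FAP-no cilia 3). Leaving out 1 library gave medians of 0.13 to 0.25 for the chaperones, 0.013 to 0.15 for the IRE1 and ATF6 arm and 0.16 to 0.30 for the PERK and ATF4 arm, and 23 to 25 members positive. The last arm's median was 0.059 with a mean of at least 50, since Chac1 and Trib3 drop out. Libraries with the same replicate number had correlated deviations of -0.070, 0.14 and 0.036, so the numbers were not taken to pair them. With the replicate block, over libraries 1 to 3 of each group, the medians were 0.10, 0.015 and 0.18 in the same order, 23 members were positive and 0 called. Scaling by library totals shifted the median of all genes to -0.062. Sex as a covariate and male libraries only gave the same class medians, since all FAP-no cilia libraries are male. Trib3 and Chac1 rest on 11 to 54 reads per library, which limits their precision.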

Other observations

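Within the list of other ATF4 targets, genes of amino acid handling were looked at after their values were seen. All 6 aminoacyl-tRNA synthetases of that list had a positive difference (FAP-no cilia minus FAP-ctrl, log2) and overlapping groups, and 0 passed the test: Gars 0.18 ± 0.080 (SE), Wars 0.24 ± 0.12 (SE), Sars 0.17 ± 0.093 (SE), Aars 0.16 ± 0.087 (SE), Iars 0.14 ± 0.10 (SE) and Nars 0.10 ± 0.078 (SE). Mars, a synthetase outside that list, had 0.0098 ± 0.072 (SE), and 51.5% of all genes tested were positive. Among amino acid transporters, Slc3a2 and Slc7a5, the chains of a large neutral amino acid exchanger, had 0.30 ± 0.11 (SE) and 0.23 ± 0.086 (SE). Groups overlapped for both (adjusted p = 0.398 and 0.392, limma-trend). For Slc3a2, FAP-no cilia 3 at 4211 lay below the male FAP-ctrl 1 and 2 at 4454 and 4341. Slc7a1, a cationic amino acid transporter, had 0.18 ± 0.10 (SE). The X-linked Slc7a3, of the same family, had 11.4 to 27.1 normalized reads without cilia against 29.3 to 61.1 in FAP-ctrl. Its highest values were those of the female controls, and its lowest control was the male FAP-ctrl 1 at 29.3. The part of sex in the Slc7a3 values was not tested. Slc7a11, the cystine transporter subunit, had 325 ± 91.4 and 535 ± 261 (SD) and a difference of 0.66 ± 0.33 (SE) (adjusted p = 0.509, limma-trend). It stood at 815, 493 and 298 in FAP-no cilia 1 to 3 and 177 to 429 in FAP-ctrl, so FAP-no cilia 3 lay among the controls.

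The serine and one-carbon enzymes were uneven. Beside Psat1, the mitochondrial enzyme Mthfd2 had 1070.2 ± 75.6 and 1322 ± 225 (SD) with 0.29 ± 0.12 (SE) and Shmt2 0.22 ± 0.12 (SE). Phgdh and Psph, the steps before and after Psat1 in serine synthesis, had -0.0019 ± 0.12 (SE) and 0.012 ± 0.15 (SE). Negative differences were found for Pycr1, of proline synthesis, at -0.25 ± 0.17 (SE), Cth, of cysteine synthesis, at -0.19 ± 0.20 (SE) and Pck2 at -0.066 ± 0.16 (SE). Aldh18a1, also of proline synthesis, had 0.059 ± 0.10 (SE). Atf3, another stress-induced factor, had 5449, 5151, 3906, 3175 and 6473 in FAP-ctrl 1 to 5 and 4279.8, 4834 and 9440.0 in FAP-no cilia 1 to 3, highest in FAP-no cilia 3, the library with the lowest chaperone median of its group.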
